A study of Mus musculus with 11 samples.

Results

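The matrix metalloproteinase (Mmp) and tissue inhibitor of metalloproteinases (Timp) genes were measured in mouse mammary epithelium on Agilent 1-colour arrays. The group held 10 genes of the 20145 named genes on the array: Mmp2, Mmp3, Mmp9, Mmp11, Mmp14, Mmp15, Timp1, Timp2, Timp3 and Timp4. They were taken by name, with every probe whose RefSeq accession belongs to one of them, which gave 12 probes. Mmp11 and Timp2 had 2 probes each, and the Mmp9 probe was printed on 10 spots of each array. Of the 10 genes, 9 passed the filter on dim probes, which kept a probe only where Agilent's software called it well above background on 3 or more arrays out of 11. Mmp9 did not pass.

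The RNA came from mammary outgrowths grown from primary mouse mammary epithelial cells. The cells had been infected overnight in low attachment culture with lentivirus carrying either the hairpin labelled shLUC, the control, or the hairpin labelled shROR2, directed at the Wnt receptor Ror2, and were resuspended in Matrigel for injection. Luminal and basal cells of the outgrowths were separated by flow cytometry on the surface proteins CD24 and CD29. The 4 groups were luminal shLUC (3 arrays), luminal shROR2 (2 arrays), basal shLUC (3 arrays) and basal shROR2 (3 arrays). All 4 groups shared the infection, the transplantation step, the sort and the amplification of the RNA before labelling. Mouse strain, age and host, the time after injection, and whether a luminal and a basal array came from the same outgrowth are not given in the sources used here. The labels speak of biological triplicates, and the p-values measure the spread between these arrays only. The study asked which functions of Ror2 belong to each compartment.

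Matrix metalloproteinases are zinc proteases that cut collagens, laminins and other matrix proteins outside the cell, and most are made as inactive precursors. The Timp proteins bind the active enzymes and inhibit them, and Timp2 also takes part in the activation of the Mmp2 precursor by the membrane-bound enzyme Mmp14. In the mammary gland these enzymes and inhibitors are known for their part in branching of the ducts and in the breakdown of the gland after weaning, and much of their expression is known from the stroma.

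Across the arrays, 52.8% to 59.5% of probes were well above background, the 75th percentile of the processed signal was between 112 and 131, and no array had a saturated spot. Over tested features, replicate arrays had pairwise correlations of 0.976 to 0.983, except in basal shROR2, where they were 0.941 to 0.953 and had a median SD of 0.345 (log2) against 0.188 in basal shLUC. The labelled compartments matched their markers: 12 of 13 basal marker genes were higher in basal shLUC cells and 14 of 15 luminal marker genes were lower there, counting Itgb1 and Cd24a, which encode the surface proteins of the sort. The Ror2 probe gave signals of 11.1, 12.1 and 10.1 (shLUC) and 16.8, 3.03 and 6.93 (shROR2) on the basal arrays, against 3.14, 3.44 and 3.48 (shLUC) and 3.54 and 8.47 (shROR2) on the luminal arrays. It was well above background on 1 array, basal shROR2 replicate 1, so the probe could not show a lower Ror2 level in the libraries labelled shROR2 (exact permutation test, p = 0.3 in luminal and p = 0.7 in basal cells, where 0.1 is the smallest p possible).

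The 300 bases around the start site (250 before and 50 after) were read for the 8 genes found in the RefSeq promoter table of build GRCm38.p6, which did not list Mmp2 or Mmp9. Windows are shown for 4 genes on which the results turn: Mmp3, Timp1 and Timp3, which were higher in basal cells, and Mmp15, which was lower. Capitals mark exact matches to 4 motifs: AP-1 (TGANTCA), Ets (AGGAAG) and GC box (GGGCGG) on either strand, and TATA box (TATAAA) on the strand of the gene. No window had motifs that overlapped. All 4 windows lie on the plus strand and are written 5′ to 3′.
Mmp3 (chr9:7445572-7445871): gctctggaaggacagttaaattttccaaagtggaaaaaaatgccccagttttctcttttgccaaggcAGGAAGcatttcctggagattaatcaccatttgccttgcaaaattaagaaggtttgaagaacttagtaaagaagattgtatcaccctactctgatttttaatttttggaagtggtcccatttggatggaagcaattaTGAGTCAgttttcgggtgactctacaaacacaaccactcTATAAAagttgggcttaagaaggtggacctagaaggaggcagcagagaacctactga
Timp1 (chrX:20869916-20870215): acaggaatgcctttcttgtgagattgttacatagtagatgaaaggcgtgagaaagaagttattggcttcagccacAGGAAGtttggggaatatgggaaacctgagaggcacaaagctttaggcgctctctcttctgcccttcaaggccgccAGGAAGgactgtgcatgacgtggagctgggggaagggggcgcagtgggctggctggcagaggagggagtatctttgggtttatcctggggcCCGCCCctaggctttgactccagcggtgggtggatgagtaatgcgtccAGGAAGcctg
Timp3 (chr10:86300162-86300461): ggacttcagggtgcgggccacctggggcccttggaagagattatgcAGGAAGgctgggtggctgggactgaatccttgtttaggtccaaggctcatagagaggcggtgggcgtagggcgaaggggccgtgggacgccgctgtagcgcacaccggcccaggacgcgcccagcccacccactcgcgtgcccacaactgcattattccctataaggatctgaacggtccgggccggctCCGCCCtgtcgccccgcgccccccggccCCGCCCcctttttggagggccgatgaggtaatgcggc
Mmp15 (chr8:95352046-95352345): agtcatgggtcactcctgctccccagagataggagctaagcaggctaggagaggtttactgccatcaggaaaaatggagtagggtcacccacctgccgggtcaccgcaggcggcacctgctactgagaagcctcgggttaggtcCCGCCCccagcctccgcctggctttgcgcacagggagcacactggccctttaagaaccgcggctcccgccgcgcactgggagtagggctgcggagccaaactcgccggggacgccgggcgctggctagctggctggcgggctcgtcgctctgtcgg
The Mmp3 window held, counted from the listed start, an AP-1 match from -46 to -40, an Ets match from -183 to -178 and a TATA match from -7 to -2. Mmp3 was the only one of the 8 genes with an AP-1 or a TATA match, against 7.81% and 8.32% of the 32851 windows in the table. Timp1 had 3 Ets matches and 1 GC box, Timp3 had 1 Ets match and 2 GC boxes, and Mmp15 had 1 GC box. Ets and GC box matches were common, in 35.4% and 35.7% of all windows. A match describes the letters only and is not a site of binding.

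Between the compartments of control (shLUC) outgrowths, Mmp2, Mmp3, Timp1, Timp2 and Timp3 were higher in basal cells and Mmp15 was lower, while Mmp11, Mmp14 and Timp4 did not pass the test. These were 6 of the 9 tested genes at an adjusted p under 0.05, against 26.9% of all 29429 tested features (13.8% higher and 13% lower). In shROR2 outgrowths the same comparison called 5 genes higher and 1 lower, against 22.9% of all features (10.6% higher and 12.3% lower), and each gene had the direction it had in shLUC outgrowths. All basal arrays lay above all luminal arrays for 7 of the 9 genes and below them for 1 in shLUC outgrowths, as for 23.7% and 28.4% of all features, and for 6 and 2 genes in shROR2 outgrowths, as for 19.7% and 26% of all features. The shLUC count of 7 includes Mmp11, which was well above background on 1 of the 6 arrays compared. Mmp3 and Mmp11 passed the filter through basal arrays only and Mmp15 through luminal arrays only. Mmp2 was well above background on all basal arrays but on only 1 luminal array. The counts of called genes and of genes without overlap are therefore not independent of the filter. Without the filter, 6 of 10 genes were called for each hairpin. Over all features these fits called 6759 (shLUC) and 5629 (shROR2) of 49218.

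Mmp2, a secreted gelatinase that cuts denatured collagen and basement membrane collagen, had processed signals of 1248, 1383 and 1112 (shLUC) and 1220.1, 1328 and 1129 (shROR2) on the basal arrays, against 12.1, 6.27 and 4.91 (shLUC) and 29.4 and 9.96 (shROR2) on the luminal arrays. All 6 basal arrays lay far above all 5 luminal arrays, and among the luminal arrays shROR2 replicate 1 alone was well above background. Because no luminal shLUC array was, the difference there is a bound: Mmp2 was at least 89.8-fold higher in basal shLUC cells, with a fitted log2 change of 7.37 ± 0.41 (SE, limma, adjusted p = 2.37e-06). In shROR2 outgrowths the log2 change was 6.21 ± 0.46 (SE, adjusted p = 2.13e-05). The arrays lay on 2 slides, and the log2 change was 6.57 and 7.79 on the slides in shLUC and 5.42 and 7.06 in shROR2 outgrowths.

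Mmp3, the stromelysin that cuts many matrix proteins and activates other Mmp precursors, had signals of 147, 175 and 133 (shLUC) and 104, 87.7 and 239 (shROR2) on the basal arrays, against 7.13, 5.09 and 7.80 (shLUC) and 12.7 and 3.77 (shROR2) on the luminal arrays. It was not well above background on any luminal array and was on every basal array, with basal shROR2 spread more widely than basal shLUC. Mmp3 was at least 10.9-fold higher in basal cells in shLUC (log2 change 4.46 ± 0.48, SE, adjusted p = 0.000152) and at least 9.80-fold higher in shROR2 outgrowths (4.28 ± 0.53, adjusted p = 0.000507). By slide the log2 change was 4.26 and 4.63 in shLUC and 3.73 and 4.54 in shROR2 outgrowths. Mmp9, the other gelatinase, gave signals from 2.50 to 3.86 and was not well above background on any of the 11 arrays, so it has no order between groups.

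Mmp15 encodes a membrane-bound enzyme related to Mmp14. Its signals were 7.44, 10.8 and 3.43 (shLUC) and 2.68, 4.51 and 2.81 (shROR2) on the basal arrays, against 41.9, 40.3 and 47.1 (shLUC) and 45.6 and 55.9 (shROR2) on the luminal arrays. Every luminal array was well above background and no basal array was, the reverse of Mmp3. Mmp15 was at least 4.02-fold lower in basal cells of shLUC outgrowths (log2 change -2.79 ± 0.35, SE, adjusted p = 0.000448) and at least 3.93-fold lower in shROR2 outgrowths (-3.91 ± 0.40, adjusted p = 0.000147). It was the only one of the 9 tested genes called lower. By slide the log2 change was -3.08 and -2.19 in shLUC and -3.96 and -3.63 in shROR2 outgrowths.

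Mmp14, the membrane-bound enzyme that activates the Mmp2 precursor, had signals of 57.5, 62.02 and 50.1 (shLUC) and 177, 47.9 and 39.1 (shROR2) on the basal arrays, against 20.7, 26.9 and 14.6 (shLUC) and 30.2 and 27.2 (shROR2) on the luminal arrays. Basal and luminal arrays did not overlap for either hairpin, but basal shROR2 replicate 1, at 177, stood apart from the other basal arrays, which lay between 39.1 and 62.02. The log2 change was 1.42 ± 0.50 (SE, 95% interval 0.29 to 2.56, adjusted p = 0.0658) in shLUC and 1.33 ± 0.56 (adjusted p = 0.127) in shROR2 outgrowths, neither past the threshold. Without that array the shLUC change had an adjusted p of 0.00195, and the shROR2 change was 0.65 (adjusted p = 0.121). By slide it was 1.34 and 1.48 in shLUC and 1.56 and 0.81 in shROR2 outgrowths.

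Mmp11, stromelysin 3, was dim. Its brighter probe (A_66_P105075) gave 9.70, 18.7 and 12.8 (shLUC) and 5.69, 27.8 and 76.8 (shROR2) on the basal arrays, against 3.22, 7.16 and 3.32 (shLUC) and 7.85 and 10.2 (shROR2) on the luminal arrays. No luminal array was well above background, against 1 of 3 basal shLUC and 2 of 3 basal shROR2 arrays. The log2 change was 1.58 ± 0.80 (SE, adjusted p = 0.188) in shLUC and 1.42 ± 0.90 (adjusted p = 0.304) in shROR2 outgrowths, where the groups overlapped. Without basal shROR2 replicate 1, here the lowest basal array, the adjusted p was 0.0342 and 0.0162, the latter at a log2 change of 2.43. Without replicate 3, the highest basal array, the shROR2 change was 0.54 (adjusted p = 0.633). The second probe (A_55_P1989698) lay between 2.42 and 25.4, was well above background on 2 arrays, basal shROR2 replicates 2 and 3, and did not pass the filter.

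**Figure D1:**
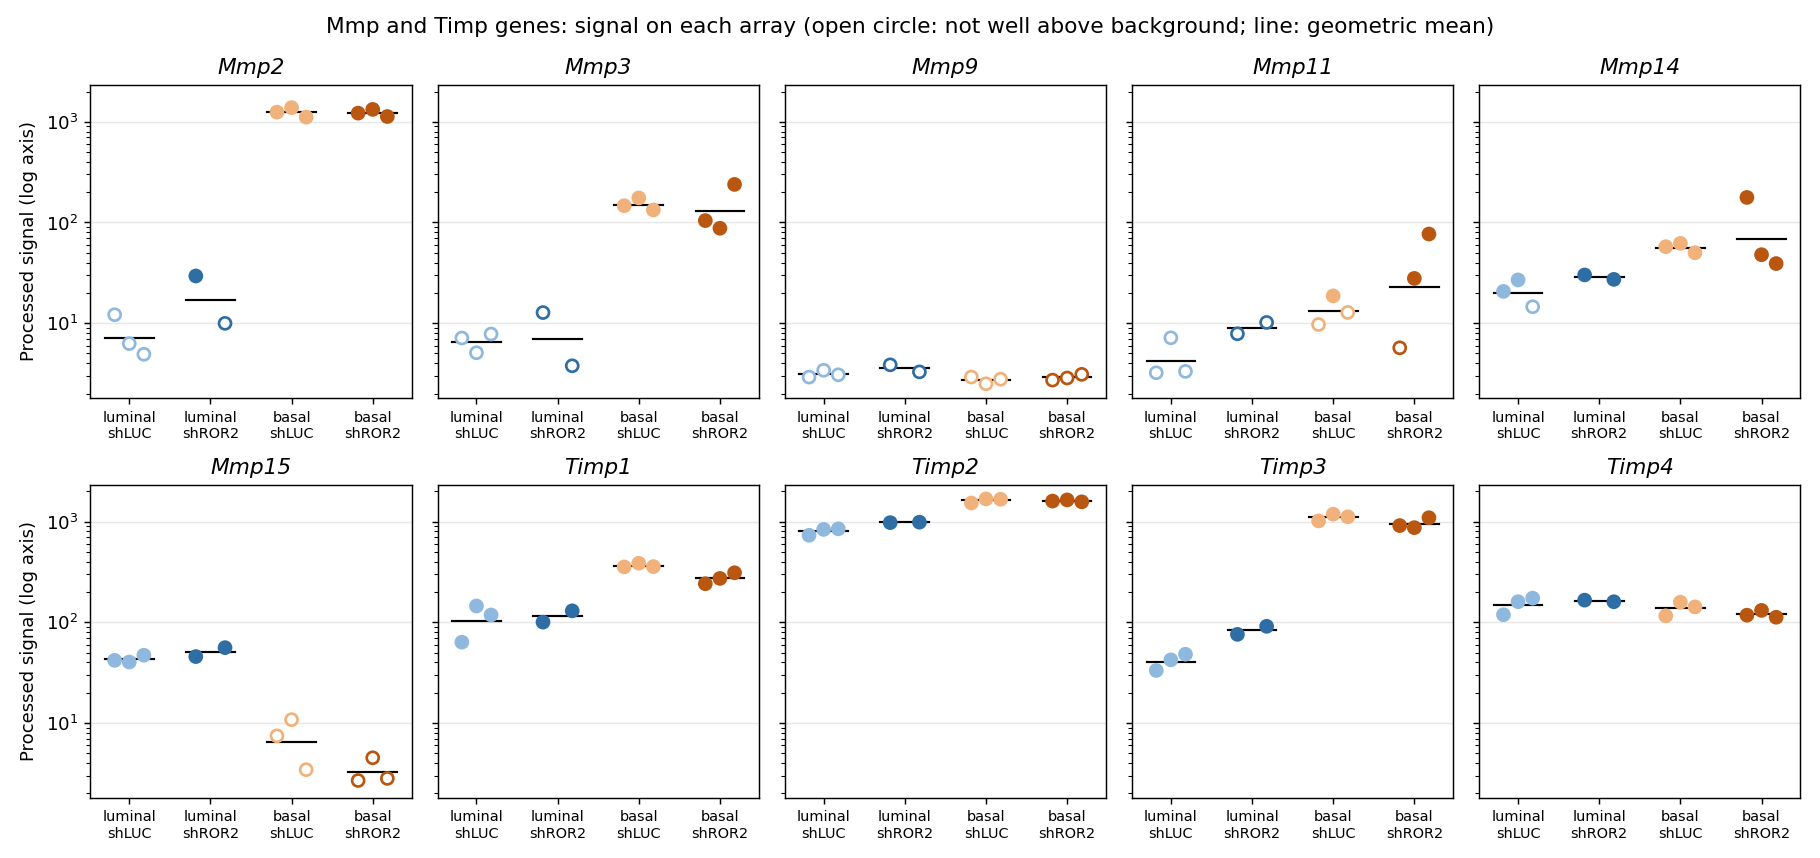
Processed signal (log axis) of the brightest probe of each of the 10 genes on each of the 11 arrays, by group; filled circles are well above background, open circles are not, and lines are geometric means. Mmp2, Mmp3, Timp1, Timp2 and Timp3 are higher on all basal arrays, as is Mmp14, which did not pass the test. Mmp15 is higher on all luminal arrays, and Mmp9 lies between 2.50 and 3.86 throughout.

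Among the inhibitors, Timp3 had the largest compartment difference. Timp3 is held in the matrix and also inhibits Adam and Adamts proteases. Its signals were 1015, 1184 and 1115 (shLUC) and 913, 870.1 and 1092 (shROR2) on the basal arrays, against 33.2, 42.3 and 48.1 (shLUC) and 75.8 and 91.1 (shROR2) on the luminal arrays. Basal arrays lay above all luminal arrays, and within the luminal arrays both shROR2 values lay above the 3 shLUC values. Timp3 was higher in basal cells by a log2 change of 4.70 ± 0.16 (SE, 25.9-fold, adjusted p = 1.60e-07) in shLUC and 3.57 ± 0.18 (11.9-fold, adjusted p = 2.54e-06) in shROR2 outgrowths. By slide it was 4.97 and 4.54 in shLUC and 3.82 and 3.25 in shROR2 outgrowths.

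Timp1, a soluble inhibitor that acts weakly on membrane-bound Mmps, had signals of 355, 385 and 357 (shLUC) and 241, 272 and 310.0 (shROR2) on the basal arrays, against 63.4, 145 and 118 (shLUC) and 100.2 and 129.8 (shROR2) on the luminal arrays. All basal arrays lay above all luminal arrays, and the basal shROR2 arrays all lay below the basal shLUC arrays. It was 3.40-fold higher in basal cells in shLUC (log2 change 1.77 ± 0.27, SE, adjusted p = 0.00142) and 2.48-fold higher in shROR2 outgrowths (1.31 ± 0.31, adjusted p = 0.0142). The shROR2 call was lost without luminal shROR2 replicate 1, at a log2 change of 1.09 and an adjusted p of 0.121. By slide the log2 change was 2.46 and 1.39 in shLUC and 1.55 and 1.07 in shROR2 outgrowths.

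For Timp2 the 2 probes differed. Probe A_52_P540219 gave 1528, 1679 and 1664 (shLUC) and 1598, 1641 and 1570.5 (shROR2) on the basal arrays, against 731, 836 and 847 (shLUC) and 976 and 986 (shROR2) on the luminal arrays. Its log2 change was 0.95 ± 0.10 (SE, 1.93-fold, adjusted p = 0.000148) in shLUC and 0.76 ± 0.11 (1.70-fold, adjusted p = 0.00137) in shROR2 outgrowths, and by slide 1.09 and 0.82, and 0.80 and 0.73. Probe A_65_P12392 gave 314, 353 and 375 (shLUC) and 390.2, 419 and 395 (shROR2) on the basal arrays, against 275, 286 and 274 (shLUC) and 356 and 285 (shROR2) on the luminal arrays. Basal arrays lay above luminal arrays of the same hairpin on both probes, but the second probe's change was 0.25 ± 0.12 (adjusted p = 0.154) and 0.39 ± 0.13 (adjusted p = 0.0681), so only the first probe passed the test.

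Timp4 had signals of 116, 158 and 142 (shLUC) and 118, 131 and 112 (shROR2) on the basal arrays, against 119, 160.0 and 173 (shLUC) and 166 and 159.9 (shROR2) on the luminal arrays. The shLUC groups overlapped, and the 3 basal shROR2 arrays lay below both luminal shROR2 arrays. The log2 change was -0.17 ± 0.15 (SE, 95% interval -0.52 to 0.17, adjusted p = 0.447) in shLUC and -0.39 ± 0.17 (adjusted p = 0.143) in shROR2 outgrowths, neither past the threshold.

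**Figure D2:**
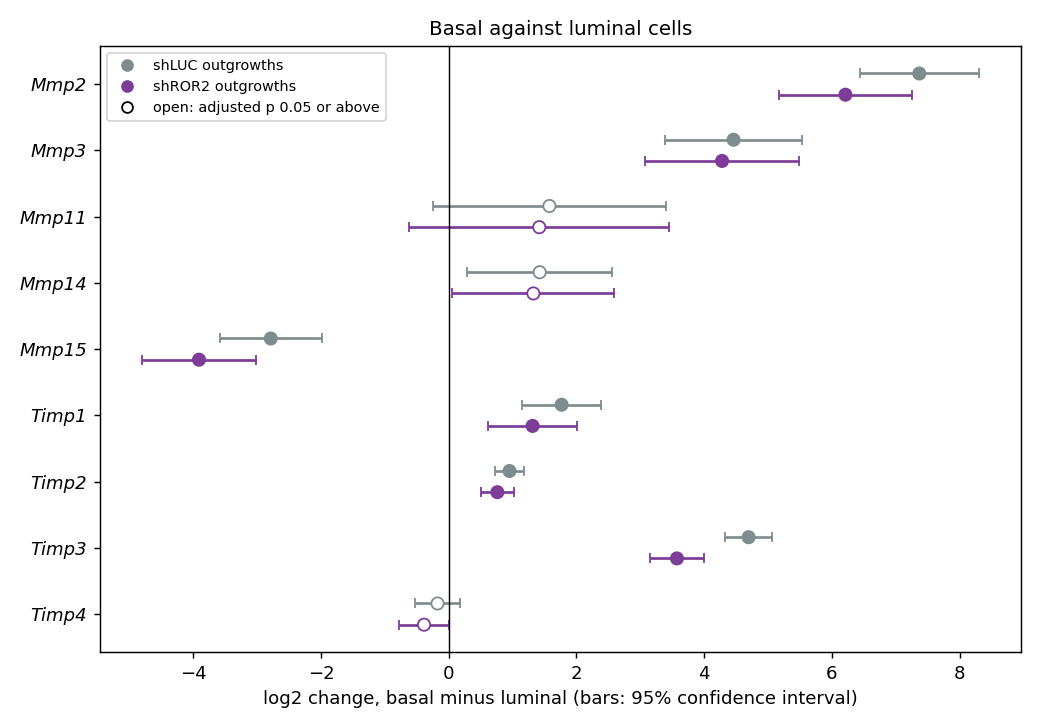
Fitted log2 change, basal minus luminal, of the 9 tested genes in shLUC and shROR2 outgrowths, with 95% confidence intervals; filled points have an adjusted p under 0.05. Mmp2 at 7.37, Timp3 at 4.70 and Mmp3 at 4.46 lie to the right in shLUC outgrowths, and Mmp15 at -2.79 is the one filled point to the left.

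Fibroblast and endothelial markers moved the same way as the genes that were higher in basal cells. Of 10 tested fibroblast markers, 9 were called higher in basal cells of shLUC and 7 of shROR2 outgrowths. Of 8 endothelial markers, 6 were called higher for each hairpin. No marker of these 2 lists was called lower, and over all features 13.8% and 10.6% were called higher. Of 4 tested adipocyte markers, 1, Fabp4, was called higher for each hairpin. The summed signal of the 11 fibroblast markers with a probe, divided by the array's 75th percentile, was 64.0 to 70.7 (shLUC) and 60.9 to 77.6 (shROR2) on the basal arrays, against 7.08 to 7.47 and 11.9 to 12.5 on the luminal arrays. Of these markers, Pdgfra, Lum, Fap and Dpt were not well above background on any luminal shLUC array, nor were Pdgfra, Lum and Dpt on any luminal shROR2 array. On the basal arrays Dpt was not well above background in shLUC, nor Pdgfra in shROR2. The part of fibroblast, endothelial or adipocyte RNA in the Mmp and Timp differences was not tested. In sorted bulk samples fewer cells of a type and less RNA per cell cannot be told apart. The 8 endothelial markers summed to 23.6 to 28.8, 45.8 to 50.9, 11.9 to 12.4 and 14.8 to 16.0 in the same order of groups, and the 6 pericyte markers to 4.01 to 4.76, 5.74 to 7.68, 3.16 to 3.43 and 4.16 to 4.73. The pericyte markers were mixed. In basal shLUC cells Pdgfrb was at least 2.95-fold higher and Rgs5 was higher by a log2 change of 2.26, while Notch3 was lower (-2.01). The summed signal of the 10 myeloid markers overlapped, at 464 to 489 in luminal shLUC and 410.0 to 489 in basal shLUC. Even so, 6 of the 10 genes were called lower in basal shLUC cells and 3 in basal shROR2 cells, as Mmp15 was. Over all features 13% and 12.3% were called lower in these comparisons. S100a8, which passed the filter through luminal arrays only, was at least 7.31-fold lower in basal shLUC cells. Adgre1, Lyz2 and C1qa were lower, with log2 changes of -1.54, -1.33 and -1.31. Adgre1 was well above background on 1 basal shLUC array. The part of myeloid RNA in the Mmp15 difference was not tested.

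**Figure D3:**
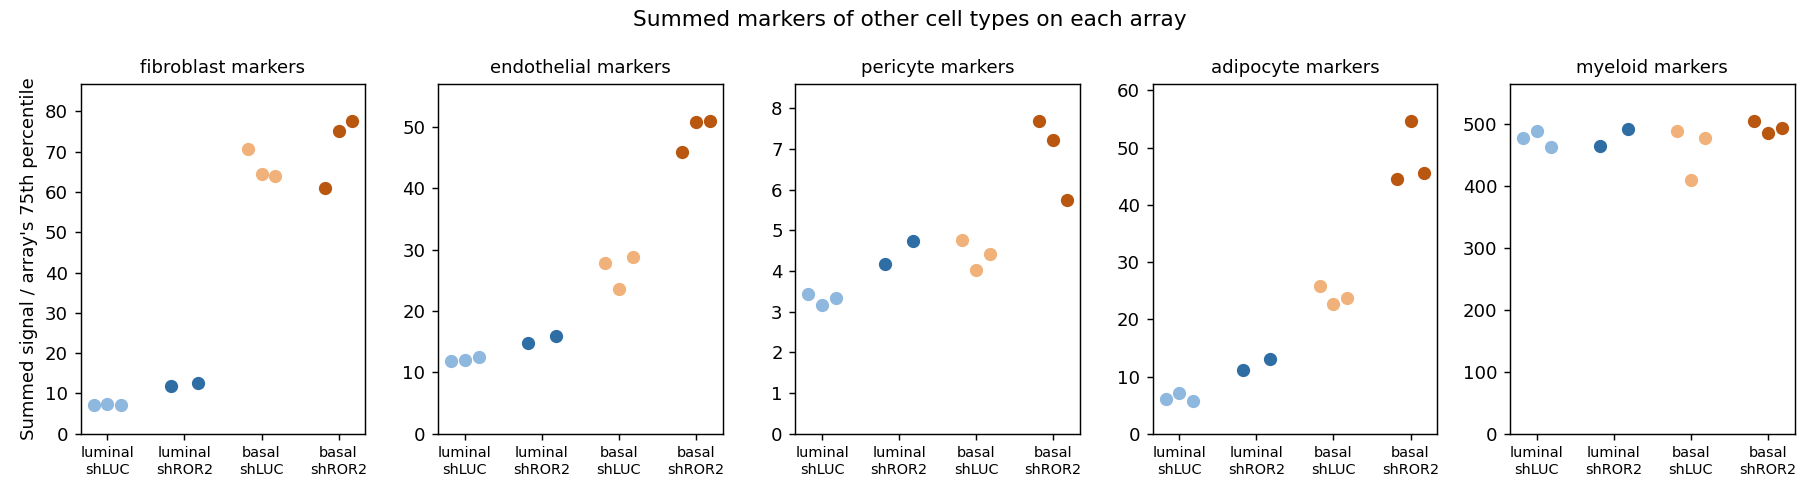
Summed processed signal of the markers of 5 other cell types divided by the array's 75th percentile (linear axes from 0), 1 point per array, by group. Fibroblast markers lie at 7.08 to 12.5 on luminal and 60.9 to 77.6 on basal arrays, and endothelial, pericyte and adipocyte markers are highest on the basal shROR2 arrays.

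Between the hairpins, in luminal cells, none of the 9 tested genes passed the threshold (limma, adjusted p from 0.235 to 1.00), and 2, Mmp2 and Timp3, had an unadjusted p under 0.05. Over all features 0.0034% were called, which is 1 feature, and 1633 had an unadjusted p under 0.05. For 4 of the 9 genes, Mmp11, Mmp14, Timp2 and Timp3, both shROR2 arrays lay above all 3 shLUC arrays, as did 14.8% of all features. Mmp11 was not well above background on any of these arrays.

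Timp3 had the lowest adjusted p of the tested genes in luminal cells. With the signals given above, 75.8 and 91.1 against 33.2, 42.3 and 48.1, its log2 difference was 0.99 ± 0.18 (SE, 95% interval 0.58 to 1.41, 1.99-fold, adjusted p = 0.235). On the 2 slides it was 1.09 and 1.03. For Mmp2 the difference was 1.21 ± 0.46 (95% interval 0.18 to 2.25, limma, adjusted p = 0.789) with 1 of 5 arrays well above background. The groups overlapped, and the difference rested on luminal shROR2 replicate 1: without it the log2 difference was 0.47. Timp2 differed by 0.25 ± 0.11 (95% interval -0.0015 to 0.51, adjusted p = 0.905) on its brighter probe. The summed fibroblast markers were also higher on both luminal shROR2 arrays, at 11.9 to 12.5 against 7.08 to 7.47, and their part in these values was not tested.

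The 95% intervals of the other measured luminal differences included 0, as did that of Timp2. Mmp14 differed by 0.48 ± 0.56 (SE), Mmp15 by 0.20 ± 0.40, Timp1 by 0.12 ± 0.31 and Timp4 by 0.10 ± 0.17. Mmp3 and Mmp11 were not well above background on any luminal array, so no difference is given for them.

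In basal cells none of the 9 tested genes passed the threshold either (limma, adjusted p from 0.253 to 0.961), and 1, Mmp15, had an unadjusted p under 0.05 although it was not well above background on any basal array. Over all features 0.948% were called (0.374% higher and 0.574% lower, or 110 and 169 features, a split that turned to 105 and 91 under median scaling) and 4644 had an unadjusted p under 0.05. Timp1 was the 1 gene whose groups did not overlap, with 241, 272 and 310.0 in shROR2 below 355, 385 and 357 in shLUC, as was the case for 11.8% of all features, while 0 of the 9 genes had all shROR2 arrays above the shLUC arrays, against 6.69% of all features. Its log2 difference was -0.34 ± 0.27 (SE, 95% interval -0.96 to 0.28, adjusted p = 0.596), and -0.35 and -0.31 on the 2 slides. Mmp2 differed by 0.06 ± 0.41, Mmp3 by -0.13 ± 0.48, Timp3 by -0.13 ± 0.16 and Timp4 by -0.12 ± 0.15.

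For Mmp14 and Mmp11, single basal shROR2 arrays set the size of the basal difference. Mmp14 differed by 0.38 ± 0.50 (SE, adjusted p = 0.762) over all arrays, by -0.30 without basal shROR2 replicate 1 and by 0.78 without replicate 3. Mmp11 differed by 0.88 ± 0.80 (adjusted p = 0.645) over all arrays, by 1.89 without replicate 1 (adjusted p = 0.0912) and by 0.00 without replicate 3. The brighter Timp2 probe differed by 0.06 ± 0.10, and its second probe, whose shROR2 arrays all lay above the shLUC arrays, by 0.29 ± 0.12 (adjusted p = 0.279). Some markers of other cell types were called higher in basal shROR2 cells. They were 2 of 8 tested endothelial, 2 of 10 myeloid and 1 of 4 adipocyte markers, against 0.374% of all features. Emcn and Plvap (endothelial list), C1qa and C1qb (myeloid list) and Fabp4 (adipocyte list) rose by log2 changes of 1.502, 1.35, 1.49, 1.04 and 1.02 (limma, adjusted p from 0.0215 to 0.0492). Adipoq and Lep of the adipocyte list were not well above background on any basal shROR2 array. The part of other cell types in the Mmp and Timp values was not tested. In a fit of the basal arrays alone 0 features were called between the hairpins.

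The test of whether the hairpin difference itself differed between basal and luminal cells called no feature, 0% of 29429, with 2443 at an unadjusted p under 0.05. Timp3 alone among the 9 genes had an unadjusted p under 0.05, with a basal-minus-luminal difference of -1.12 ± 0.25 (log2, SE, adjusted p = 0.287). Timp3 did not pass this test, and its fitted hairpin differences were 0.99 in luminal and -0.13 in basal cells.

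**Figure D4:**
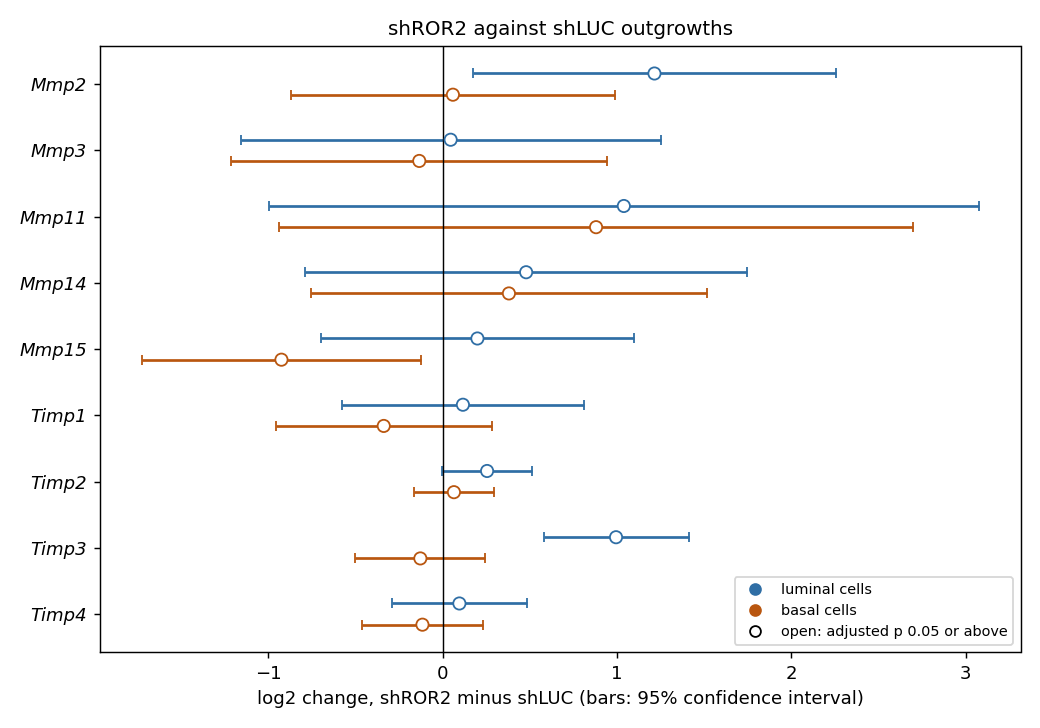
Fitted log2 difference, shROR2 minus shLUC, of the 9 tested genes in luminal and basal cells, with 95% confidence intervals; every point is open, as no adjusted p is under 0.05. The luminal Timp3 interval, 0.58 to 1.41, lies furthest from 0, and the Mmp11 intervals are the widest.

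Other genes of the same protease system were compared between the compartments as lists, in shLUC outgrowths unless stated. Over all features, 13.8% were called higher and 13% lower in basal cells of shLUC outgrowths. In shROR2 outgrowths these shares were 10.6% and 12.3%. Some listed genes, among them Mmp10, Mmp23, Adamts17, Pcsk5 and Tfpi2, were not well above background on any luminal array. They passed the filter through basal arrays only, so the list counts and medians are not independent of the filter. Of 17 other Mmp genes, 16 had a probe and 6 were tested. Mmp10, a stromelysin, was at least 3.47-fold higher in basal cells (adjusted p = 0.00160) and Mmp23 at least 3.12-fold higher (adjusted p = 0.00101). Mmp17, a membrane-anchored enzyme, was higher by a log2 change of 1.53 ± 0.26 (SE, adjusted p = 0.00236), and Mmp12, the macrophage elastase, was lower by 1.11 on the same scale (log2 change -1.11 ± 0.33, adjusted p = 0.0350). In shROR2 outgrowths Mmp23 alone of the 6 was called, at least 2.73-fold higher. The median log2 change of the 6 was 0.91, against -0.06 over all features.

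The Adamts genes, secreted proteases with thrombospondin repeats, were mostly higher in basal cells. Of 18 with a probe, 14 passed the filter and were tested. Of these, 11 were higher and 1 was lower (median log2 change 2.52), against 13.8% and 13% of all features. Adamts18 changed by 4.97 ± 0.99 (SE, adjusted p = 0.00576), a size that rests on dim values, as 1 luminal shLUC array was well above background. Adamts1 changed by 4.20 ± 0.16 (adjusted p = 2.73e-07), Adamts2 was at least 10.1-fold higher and Adamts17 at least 4.87-fold higher. In shROR2 outgrowths 8 were higher and 1 was lower. The membrane-bound Adam genes moved less: of 10 tested, Adam19 (1.04 ± 0.25) and Adam9 (0.95 ± 0.18) were higher and Adam10, a sheddase of cell surface proteins, was lower (-1.19 ± 0.11, adjusted p = 5.22e-05), with a list median of 0.27.

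Of 23 tested activators and other regulators of Mmps, 15 were higher and 4 were lower in basal cells, against 13.8% and 13% of all features. Their median was 0.71. Pcsk5, a proprotein convertase, was at least 6.18-fold higher. Tfpi2, a serine protease inhibitor of the matrix, was at least 3.66-fold higher. Thbs1, a matrix protein that binds several proteases, was higher by 3.12 ± 0.11 (log2, SE, adjusted p = 1.88e-07). In shROR2 outgrowths 12 were higher and 3 lower, among them Plat, tissue plasminogen activator, at 2.98 ± 0.15.

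Of 16 matrix substrates, 15 were higher and 1, Lama5, was lower in basal cells, against 13.8% and 13% of all features. Their median was 2.78. The type IV collagen chains Col4a2 and Col4a1 were higher by 5.38 ± 0.14 and 4.74 ± 0.15 (log2, SE), the laminin chain Lama1 by 4.77 ± 0.24, and the laminin-binding Nid1 was at least 17.8-fold higher. The 12 AP-1 and Ets factors split, 6 higher and 5 lower with a median of 0.13, against the same shares of all features. Fosl1, Ets1 and Etv5 were higher by 1.47, 1.32 and 1.28, and Fos was lower, at -1.69 ± 0.10 (adjusted p = 4.35e-06). Fosb and Fos were the only genes of these 6 lists called between the hairpins: both rose in basal shROR2 cells, by 0.86 ± 0.09 (adjusted p = 0.0100) and 0.61 ± 0.10 (adjusted p = 0.0389). Both encode subunits of AP-1. These 2 of the 12 factors compare with 0.374% of all features called higher in basal shROR2 cells.

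**Figure D5:**
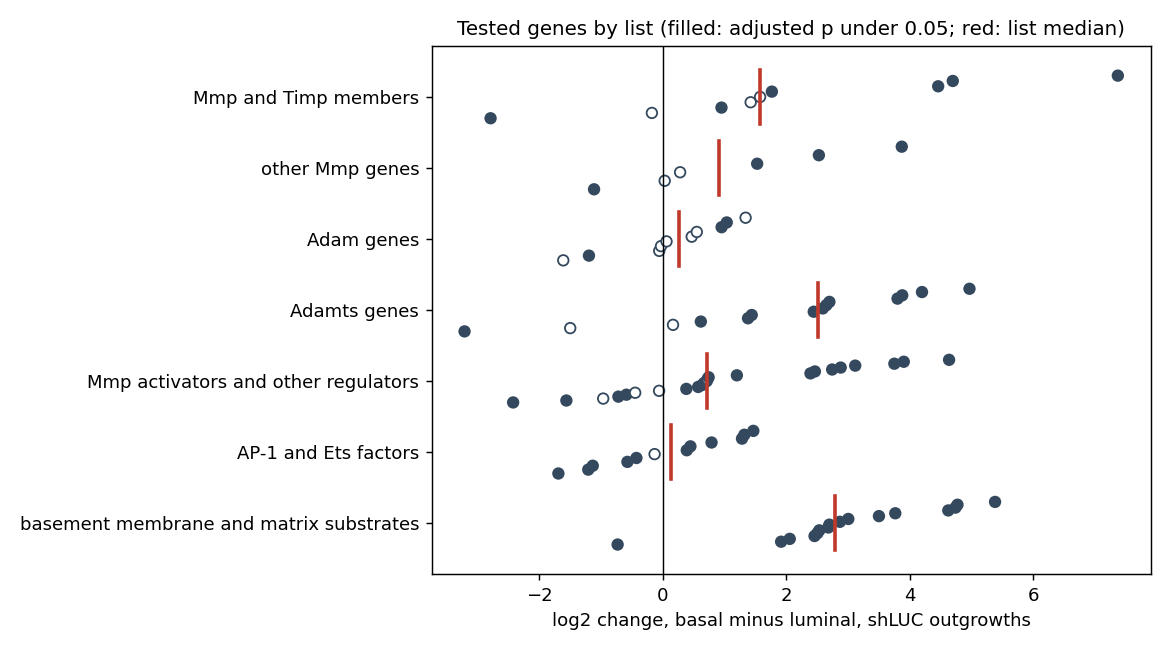
Fitted log2 change, basal minus luminal in shLUC outgrowths, of each tested gene of the Mmp and Timp group and of 6 related lists; filled points have an adjusted p under 0.05 and red bars are list medians. The matrix substrates and Adamts genes have medians of 2.78 and 2.52; the bar of the Mmp and Timp group falls on Mmp11, which was not well above background on any luminal array.

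Each tested member was also compared with all named genes by Pearson correlation over the 11 arrays, as a description of arrays that share 2 compartments. The closest genes to Mmp2 were Ifitm2, Ppic and Cdh3 (0.997 to 0.995), and those closest to Timp3 were Agpat4, Dchs1 and Fstl1 (0.998 to 0.997). Timp2 was closest to Mt1, Col5a1 and Apoe (0.993 to 0.992), Mmp3 to Ston2, Ptpru and Adcy7 (0.988 to 0.985), and Timp1 to Panx1, Ccnjl and Ybx3 (0.980 to 0.978). Mmp15, the gene with the opposite pattern, was closest to S100a8, Sppl2a and Gna14 (0.989 to 0.986). The genes without a called compartment difference had lower top values: 0.953 for Mmp11 with Bcl3, 0.951 for Mmp14 with Icam4 and 0.915 for Timp4 with Mettl27.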

How the data were processed

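The 11 arrays were read from the scanner output. The authors' deposited files give a processed signal intensity per spot, already corrected for background by Agilent Feature Extraction (version 11.0.1.1, per the file headers). Control spots were left out, spots of a probe were averaged, and log2 intensity was scaled by subtracting each array's 75th percentile. The authors' deposited value table holds linear intensity that correlated at 0.996 to 0.998 with the scanner's median signal and shows no background subtraction; its column medians are 88.8 to 89.3, and how arrays were normalized to each other stays unknown. It was used on the log2 scale as an alternative. Per gene the probe with the highest mean was used. limma 3.58.1 (R 4.3.3) fitted 4 group means over all 11 arrays, with Benjamini-Hochberg adjustment over 29429 features and calls at an adjusted p under 0.05. Differences against a group with no array well above background are bounds: the bright group's mean over all its arrays was set against the mean of, per array, the higher of the lowest signal among probes well above background and the dim probe's own. No bound is given for Mmp11, nor for Mmp2 between the hairpins in luminal cells, where groups overlapped. The number of arrays limits the precision.

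Named were all members, up to 4 called genes per list and comparison by size of change, and the 3 genes most correlated with each member; 1 gene that this rule names is not reported here. The members and lists were chosen with earlier results of these data known. The scripts were tested on simulated data. Same-numbered arrays shared no visible deviation: over 15 such pairs, deviations from the group means correlated at -0.04 to 0.04. With 2 or 3 arrays a group, this cannot show whether same-numbered arrays came from the same outgrowth. The main fit did not pair the arrays. Slide was tried as a block, beside the alternatives of the closing section.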

Additional observations from a re-analysis of the deposited data

How the results depend on the processing

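Over 45 gene-by-comparison results, 1010 values under another setting kept their side of the threshold, 8 passed it newly, 3 lost it and 0 reversed a call. Mmp2, Mmp3, Mmp15 and Timp3 kept their compartment calls, for both hairpins, under every setting run. Without background subtraction the sizes shrank: in the authors' deposited table the shLUC compartment change was 3.86 for Mmp2, 1.42 for Mmp3, -0.71 for Mmp15, 3.21 for Timp3 and 1.16 for Timp1. In shROR2 outgrowths Timp1 lost its call with array weights (adjusted p = 0.0525) and Timp2 with only the groups compared (adjusted p = 0.0530). In shLUC outgrowths Mmp11 and Mmp14 passed with array weights (adjusted p = 0.0440 and 0.00919) and with only the groups compared (0.0212 and 0.00651), and Mmp14 passed without basal shROR2 replicate 3 (0.0444). The count of Mmp and Timp genes called between compartments was 6 for each hairpin, 6 to 8 (shLUC) and 5 to 7 (shROR2) when single arrays were left out, and 0 between hairpins throughout.

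Over all features, the shROR2 compartment count of 6728 became 2822 with only the groups compared, which raised the share called higher from 46.3% to 56.8%, and ranged from 3770 to 7539 with single arrays left out. Median scaling moved the share of basal hairpin calls that were higher from 39.4% to 53.6%. The basal hairpin count of 279 became 688 with normexp, 538 in the authors' table, 130 without the filter, 129 with slide as a block, 44 with array weights and 0 with only the groups compared, and ranged from 21 (without basal shLUC replicate 1) to 877 (without basal shROR2 replicate 1). The luminal hairpin count of 1 became 5 with quantile normalization, 22 with normexp, 22 in the authors' table, 3 without the filter, 6 with the filter on all arrays of a group and 62 with array weights. It became 0 with median scaling, the mean of a gene's probes, slide as a block or only the groups compared, and ranged from 0 to 10 with single arrays left out. The count for the hairpin effect between compartments, 0, became 2 with quantile normalization, 1 with median scaling, 7 with normexp, 7 in the authors' table and 3 with the filter on all arrays of a group, and ranged from 0 to 8. With replicate number as a block, 37 features were called between hairpins in basal cells and 0 in luminal cells, and no Mmp or Timp call changed. The cause of these shifts was not tested. Normexp was run on the median signal, chosen after seeing the data; the planned normexp on the mean signal was not run.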
